A study of Mus musculus with 9 samples.

Results

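A set of 36 neutrophil granule and maturation genes was followed in RNA-seq libraries of sorted mouse bone marrow hematopoietic stem cells (HSCs). Members were given by gene name, and all 36 were found among the 56748 genes of the count file. The 9 libraries fell into 3 groups of 3 biological replicates (n = 3 throughout): young HSCs (yHSCs) from mice 6 to 10 weeks old, and pre-aged HSCs (paHSCs) from mice 14 to 16 months old, split at the sort by surface P-selectin into Selp_low and Selp_high fractions. Per the study's methods the mice were female C57BL/6, and every group was sorted from bone marrow as lineage-negative, Sca1+, c-Kit+, CD48-, CD150+ cells. The labels name no transgene or treatment for any group. Whether a replicate was 1 animal or a pool is not given in the sources used here, so p-values measure the spread between these libraries.

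Neutrophils fill their granules in a fixed order as they mature. Promyelocytes make the proteases and myeloperoxidase of primary (azurophil) granules, myelocytes and metamyelocytes make the lactoferrin, cathelicidin and lipocalin of secondary (specific) granules, and later cells make gelatinase and the surface receptors of mature neutrophils. Calprotectin, the S100A8/S100A9 dimer, accumulates in the cytosol over the same course, and the NADPH oxidase, which makes superoxide in phagocytes, is also expressed by B cells and other leukocytes. HSCs themselves are not known for secreting granule proteins, and the lineage antibodies of the study's reagent list include Gr-1 and Mac-1, which bind the products of Ly6g/Ly6c and Itgam.

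Each library held 24866975 to 35375310 counts on genes, and the counts are given as CPM, a level relative to the library total adjusted with edgeR's TMM factors over all 9 libraries. A count of 0 allowed up to 3 counts, or 0.0695 to 0.198 CPM, for counting error only. All 12 HSC markers on a list of such genes had counts in every library. Their summed level was 1374 to 2829 CPM in yHSCs, 1076 to 1803 CPM in Selp_low paHSCs and 2597 to 3722 CPM in Selp_high paHSCs. Every Selp_low library thus lay below every Selp_high library in this sum. Selp itself was at 264 to 651 CPM in Selp_high paHSCs against 29.3 to 109 CPM in Selp_low paHSCs and 20.5 to 30.0 CPM in yHSCs. Some libraries stood apart. In Selp_low replicate 2 the top 10 genes took 44.8% of all counts and the TMM factor was 0.544, against 1.05 to 1.22 in the yHSC and Selp_high libraries; summed B cell markers were at 5487 and 7814 CPM in Selp_low replicates 1 and 2, against 68.0 to 537 CPM elsewhere, and plasma cell markers reached 100608 CPM in Selp_low replicate 2. Selp_low replicate 3 had the lowest summed HSC markers, 20.9% of counts in the top 10 genes and a TMM factor of 0.785. The number of genes with a count was 21094 in yHSC replicate 2, 21755 in Selp_high replicate 1 and 25192 in Selp_high replicate 3. It was 31236 to 34143 elsewhere.

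The 36 members together took between 0.169% and 22.7% of the counts of a library. The share was 11.3%, 2.41% and 3.08% in yHSC replicates 1, 2 and 3, and 0.977%, 0.169% and 22.7% in the Selp_low paHSC replicates. In the Selp_high paHSC replicates it was 1.23%, 0.465% and 6.59%. The exact (Clopper-Pearson) 95% interval of the lowest share ran from 0.168% to 0.171%, and intervals here cover counting error only. The range inside the Selp_low group alone spanned the ranges of both other groups. More cells of the neutrophil lineage and more of these RNAs per cell cannot be told apart in bulk samples.

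One library led nearly every member. Selp_low replicate 3 was the highest of the 9 for 31 of the 36 genes, Selp_high replicate 3 for 4 (Mmp8, Mmp9, Padi4 and Fpr1) and Selp_high replicate 2 for Fcna. Selp_low replicate 2 was the lowest for 22 of the 36. Within Selp_high paHSCs, 30 of 36 members were ordered replicate 2, replicate 1, replicate 3 from low to high, an order that 10.5% of the 22594 genes passing the filter on low counts had. The same numbers gave this order for 26 members within Selp_low paHSCs, against 16.5% of genes. In yHSCs, 24 members had replicate 2 lowest and replicate 1 highest, against 36.4% of genes.

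**Figure D1:**
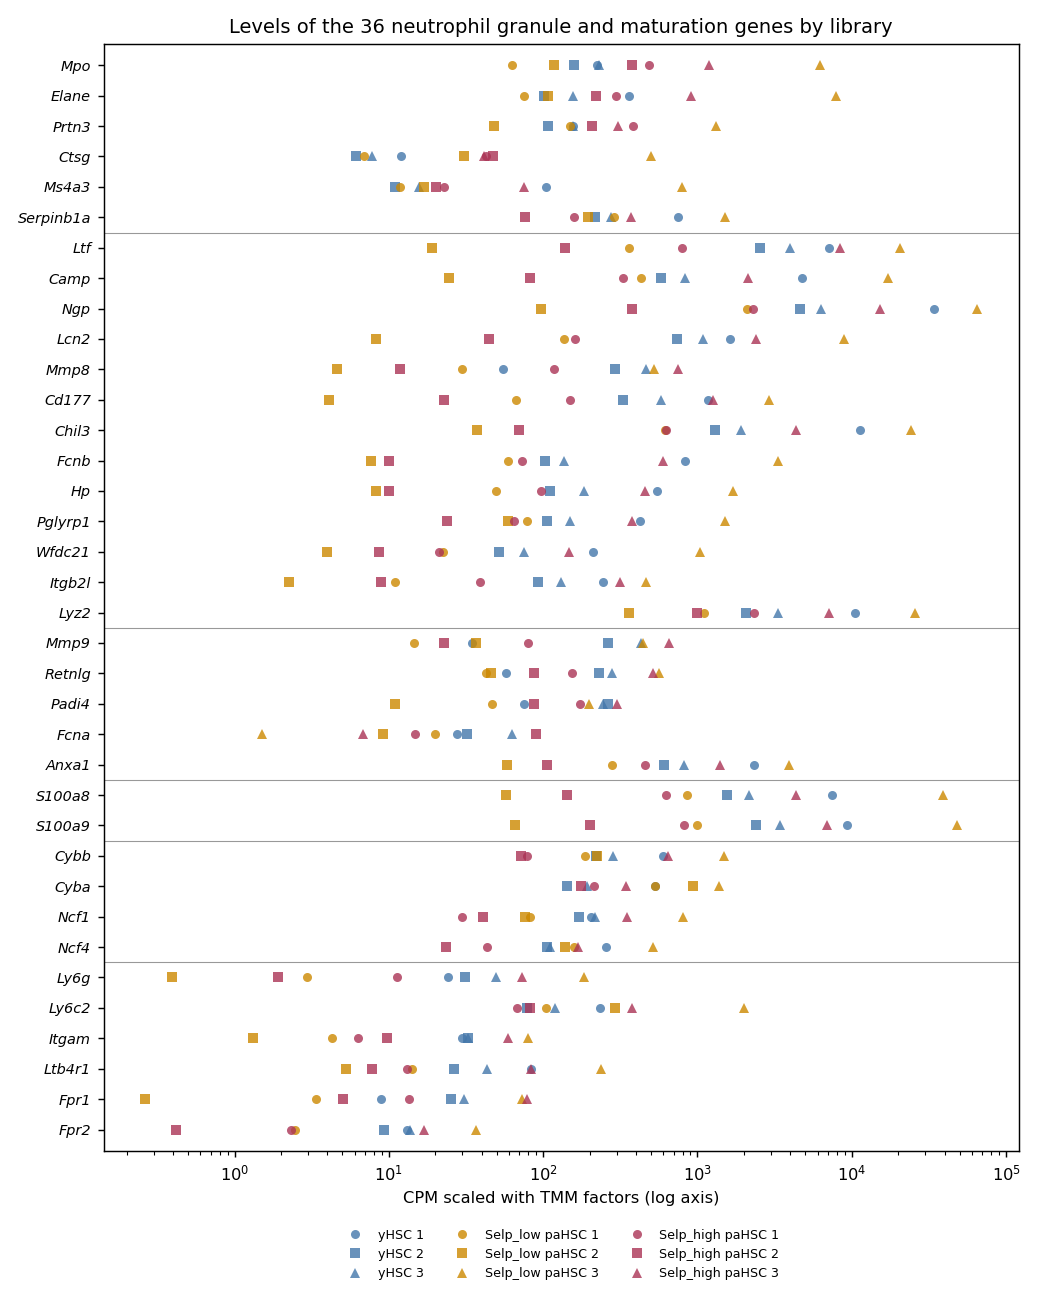
Level of each of the 36 genes in each of the 9 libraries, in CPM scaled with TMM factors on a log axis; colors mark the groups, shapes the replicates, and lines divide the 6 groups of genes (Fpr2 at 0 counts in Selp_low replicate 2 is not drawn). Selp_low replicate 3 lies at the right for 31 genes and Selp_low replicate 2 at the left for 22.

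The primary granule genes are considered first. Elane, which encodes neutrophil elastase, had the highest level per length of this group, with a mean of 1146 FPKM over all libraries. It was at 362, 102 and 157 CPM in yHSC replicates 1, 2 and 3, at 75.2, 107 and 7922 CPM in the Selp_low paHSC replicates, and at 297, 220.1 and 906 CPM in the Selp_high paHSC replicates. Selp_low replicate 3 stood alone, and yHSC replicate 1 lay inside the range of Selp_high paHSCs. Mpo, myeloperoxidase, was at 225, 158 and 230.1 CPM in yHSCs, at 62.8, 118 and 6216 CPM in Selp_low paHSCs and at 484, 374 and 1195 CPM in Selp_high paHSCs. Here every Selp_high library lay above every yHSC library.

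Prtn3, the proteinase 3 gene, was at 155, 108 and 157 CPM in yHSCs, at 148, 48.1 and 1327 CPM in Selp_low paHSCs and at 379, 208 and 305 CPM in Selp_high paHSCs. Ctsg, cathepsin G, was at 12.1, 6.14 and 7.82 CPM in yHSCs, at 6.89, 30.6 and 500.0 CPM in Selp_low paHSCs and at 42.5, 47.4 and 41.6 CPM in Selp_high paHSCs. Both genes shared with Mpo the separation of Selp_high paHSCs from yHSCs, and Ctsg had the tightest Selp_high libraries of all 36 members, with a highest over lowest ratio of 1.14. Serpinb1a, the cytosolic inhibitor of these proteases, did not follow them: it was at 750.0, 216 and 274 CPM in yHSCs, at 289, 195 and 1509.8 CPM in Selp_low paHSCs and at 159, 76.0 and 369 CPM in Selp_high paHSCs. Ms4a3, a marker of granulocyte-monocyte progenitors, was at 10.9 to 104 CPM in yHSCs, 11.7 to 796 CPM in Selp_low paHSCs and 20.1 to 74.7 CPM in Selp_high paHSCs.

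Sequences upstream of these genes were read from RefSeq promoters (GRCm38.p6), a build other than the mm39 of the counts, so no file coordinate was joined to them. Promoters were found for 31 of the 36 members, 33 sequences in all since Ly6c2 and Ly6g have 2 each, and not for Hp, Mmp9, Ncf4, Serpinb1a and Wfdc21. In the 250 bases before the start site, both strands were searched for GAGGAAG, a core that the myeloid factor PU.1 is known to bind, and for TTGCNNAA, a pattern bound by C/EBP factors; neither pattern contains the other. GAGGAAG was in 16 of the 33 member promoters (48.5%) and in 10.6% of all 32851 promoters of the same length. Among the matched primary granule genes, Mpo, Elane, Prtn3 and Ctsg had it and Ms4a3 did not. The stretches of 60 bases with the match in capitals are shown for these 4, which encode the peroxidase and the serine proteases of the primary granule.
Mpo (chr11:87793534-87793593, + strand): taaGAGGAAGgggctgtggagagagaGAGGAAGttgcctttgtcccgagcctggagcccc
Elane (chr10:79886200-79886259, + strand): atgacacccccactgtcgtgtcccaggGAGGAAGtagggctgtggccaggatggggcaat
Prtn3 (chr10:79879545-79879604, + strand): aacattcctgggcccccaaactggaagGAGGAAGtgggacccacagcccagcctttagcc
Ctsg (chr14:56102758-56102817, - strand): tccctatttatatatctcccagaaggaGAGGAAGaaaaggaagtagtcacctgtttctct
The match began 85 bases before the start site in Elane, 95 in Prtn3 and 216 in Ctsg, and Mpo had 2, at 247 and 224 bases. In the deposited mm39 annotation, Prtn3 (ENSMUSG00000057729, chromosome 10, 79710310 to 79719008) and Elane (ENSMUSG00000020125, 79722081 to 79724049) lie on the same strand with 3072 bases between them. Mpo (ENSMUSG00000009350) spans 87684407 to 87695239 of chromosome 11 and Ctsg (ENSMUSG00000040314) 56337338 to 56340031 of chromosome 14.

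The secondary granule genes held most of the members' signal. Ngp, neutrophilic granule protein, was the most abundant member by counts, at 34119, 4599 and 6325 CPM in yHSCs, at 2107, 97.4 and 64692 CPM in Selp_low paHSCs and at 2297, 378 and 15122 CPM in Selp_high paHSCs. In Selp_low replicate 3 this single gene took 5.08% of all counts. Lyz2, lysozyme M of granulocytes and macrophages, was at 10472, 2055 and 3325 CPM in yHSCs, at 1101, 361 and 25571 CPM in Selp_low paHSCs and at 2307, 998 and 7156 CPM in Selp_high paHSCs. Camp, the cathelicidin precursor, was at 4744, 584 and 835 CPM in yHSCs, at 431, 24.4 and 17202 CPM in Selp_low paHSCs and at 331, 82.5 and 2128 CPM in Selp_high paHSCs. For these 3 genes yHSC replicate 1 was the second highest of the 9 libraries, above Selp_high replicate 3, and all 3 groups overlapped.

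The other 10 members of this group had the same wide range. Ltf, lactoferrin, and Lcn2, lipocalin 2, ranged 1073-fold and 1075-fold between Selp_low replicates 2 and 3, the largest ranges of any member: Ltf from 19.1 to 20504 CPM and Lcn2 from 8.24 to 8859 CPM. Chil3, Fcnb, Cd177, Hp, Pglyrp1, Wfdc21 and Itgb2l were all highest in Selp_low replicate 3 and reached 24099, 3339, 2894, 1687, 1516, 1035 and 466 CPM there. Mmp8, neutrophil collagenase, went a different way, at 54.9, 293 and 463 CPM in yHSCs, 29.8, 4.61 and 521 CPM in Selp_low paHSCs and 118, 11.8 and 745 CPM in Selp_high paHSCs. It was lowest of the yHSC libraries in replicate 1, where Ngp, Lyz2 and Camp were highest.

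TTGCNNAA was found before 9 of the 31 members (27.3% of the 33 promoters, against 9.56% of all promoters), 5 of them secondary granule genes of 11 matched and none a primary granule gene. It is shown for Ltf, Ngp, Lcn2 and Mmp8, whose levels are described above.
Ltf (chr9:111019191-111019250, + strand): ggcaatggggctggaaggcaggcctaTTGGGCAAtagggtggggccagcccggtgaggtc
Ngp (chr9:110419644-110419703, + strand): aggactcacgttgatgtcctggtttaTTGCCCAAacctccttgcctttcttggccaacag
Lcn2 (chr2:32387922-32387981, - strand): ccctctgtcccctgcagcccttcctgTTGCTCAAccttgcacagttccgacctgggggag
Mmp8 (chr9:7558369-7558428, + strand): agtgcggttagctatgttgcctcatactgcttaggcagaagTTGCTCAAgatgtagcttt
The capitals mark the match, which in Ltf reads on the other strand. It lay 75, 138, 216 and 19 bases before the start site in this order, and Ngp had another at 11 bases. Fcnb was the other member of the group with the pattern. Mmp8 and Lcn2 were the members of this group that held both patterns. A match describes letters in a window and not a bound site. In the deposited annotation Ltf, Ngp and Camp all lie on chromosome 9, with 596258 bases between Ltf and Ngp and 570129 between Ngp and Camp.

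The late granule and late maturation genes were less extreme. Anxa1, annexin A1, was at 2326, 603 and 812 CPM in yHSCs, at 279, 58.3 and 3932 CPM in Selp_low paHSCs and at 456, 106 and 1392 CPM in Selp_high paHSCs, the order of the secondary granule genes. Retnlg, resistin-like gamma, was at 57.4, 229 and 279.6 CPM in yHSCs, at 42.9, 45.6 and 565 CPM in Selp_low paHSCs and at 154, 87.4 and 514 CPM in Selp_high paHSCs. Mmp9, gelatinase B, was at 34.5, 263 and 431 CPM in yHSCs, at 14.6, 36.7 and 442 CPM in Selp_low paHSCs and at 80.3, 22.6 and 657 CPM in Selp_high paHSCs. Retnlg and Mmp9 were thus low in yHSC replicate 1, and so was Padi4, the deiminase of neutrophil extracellular traps, at 75.2 CPM against 264 and 244 CPM in the other two yHSC libraries. Padi4 did not exceed 301 CPM in any library.

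Fcna, ficolin A, is a lectin made mainly by macrophages, and it ran against the rest of the members. It was at 27.8, 32.3 and 62.9 CPM in yHSCs, at 20.0, 9.16 and 1.50 CPM in Selp_low paHSCs and at 14.9, 90.1 and 6.84 CPM in Selp_high paHSCs. Its lowest level was in Selp_low replicate 3, where 31 other members peaked, and its highest in Selp_high replicate 2. Every Selp_low library lay below every yHSC library. Summed monocyte and macrophage markers in the 9 libraries ran from 267 CPM in Selp_high replicate 3 to 1171 CPM in Selp_low replicate 2. They were at 340 CPM in Selp_low replicate 3. The sum joins markers that went opposite ways. In Selp_low paHSCs over yHSCs, 6 of 14 were above 0, such as Ly86 at 3.83, and 8 below, such as Csf1r at -2.67. The part of these markers in the Fcna level was not tested.

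The calprotectin genes moved as a pair. S100a8 was at 7473, 1554 and 2166 CPM in yHSCs, at 851, 57.6 and 38919 CPM in Selp_low paHSCs and at 624, 142 and 4343 CPM in Selp_high paHSCs. S100a9 was at 9250.2, 2395 and 3435 CPM in yHSCs, at 990.0, 65.5 and 47783 CPM in Selp_low paHSCs and at 816, 201 and 6886 CPM in Selp_high paHSCs. Within a library there were 63.1 to 88.0 S100a8 counts per 100 S100a9 counts while the level of S100a8 varied 676-fold and that of S100a9 730.0-fold over the libraries. Per length, S100a9 had the highest mean of all members, at 15288 FPKM, followed by Ngp at 11796 FPKM and S100a8 at 8987 FPKM.

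The NADPH oxidase genes were also highest in Selp_low replicate 3. Cyba, the p22phox subunit, was at 533, 143 and 191 CPM in yHSCs, at 528, 942 and 1377 CPM in Selp_low paHSCs and at 214, 176 and 343 CPM in Selp_high paHSCs. Cybb, the gp91phox subunit, was at 599, 219.9 and 284 CPM in yHSCs, at 186, 223 and 1494 CPM in Selp_low paHSCs and at 78.9, 71.7 and 647 CPM in Selp_high paHSCs. Ncf4, the cytosolic p40phox, was at 255, 105 and 111 CPM in yHSCs, at 157, 138 and 517 CPM in Selp_low paHSCs and at 43.3, 23.4 and 167 CPM in Selp_high paHSCs. Selp_low replicate 2, lowest of all for most granule genes, was the second highest library for Cyba, and every Selp_low library lay above every Selp_high library. Ncf1, p47phox, was at 170 to 216 CPM in yHSCs, 75.7 to 802 CPM in Selp_low paHSCs and 29.7 to 351 CPM in Selp_high paHSCs.

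The B cell and dendritic cell marker sums were high in Selp_low replicates 1 and 2. In these Cyba lay above every Selp_high library and most granule genes were low. Cyba in Selp_low replicate 1, at 528 CPM, was no higher than in yHSC replicate 1, at 533 CPM, where B cell markers summed to 107 CPM. B cell markers summed to 5487, 7814 and 68.0 CPM in Selp_low replicates 1, 2 and 3, and the Selp_high libraries had 185 to 537 CPM. All 10 B cell markers had counts in each of these libraries except Pax5, which was at 0 in Selp_high replicate 3. Dendritic cell markers, which include Cd74 and H2-Ab1 of antigen-presenting cells, summed to 18091, 29645 and 259 CPM in Selp_low paHSCs and to 680 to 2087 CPM in Selp_high paHSCs. The dendritic cell list was split between the paHSC fractions, with 4 genes higher in Selp_high paHSCs, such as Siglech at 1.72, and 4 lower, such as Cd74 at -3.70. In Selp_low paHSCs over yHSCs, Flt3 was at -4.23 and Cd74 at 5.06. The part of both sums in the Cyba difference was not tested, and Cyba was highest in Selp_low replicate 3, where both sums were at their lowest.

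The last group holds surface antigens and chemoattractant receptors. Ly6c2, which is shared with monocytes, was at 233, 78.5 and 119.9 CPM in yHSCs, at 104, 291 and 1987 CPM in Selp_low paHSCs and at 67.3, 81.7 and 375 CPM in Selp_high paHSCs. Ly6g, the neutrophil antigen that Gr-1 antibodies bind, was at 24.0, 31.0 and 49.2 CPM in yHSCs, at 2.95, 0.395 and 183 CPM in Selp_low paHSCs and at 11.2, 1.90 and 73.3 CPM in Selp_high paHSCs. Ltb4r1, a leukotriene B4 receptor, was at 83.5, 26.6 and 43.5 CPM in yHSCs, at 14.2, 5.27 and 236 CPM in Selp_low paHSCs and at 13.2, 7.77 and 83.4 CPM in Selp_high paHSCs. Ly6g thus had counts in every library, and its level in Selp_low replicate 2 was near the 0.198 CPM that a count of 0 allows there. Itgam, CD11b, varied little in yHSCs (29.7 to 32.7 CPM) and from 1.32 to 80.2 CPM in Selp_low paHSCs. Fpr2, a formyl peptide receptor, had a count of 0 in Selp_low replicate 2, which allows up to 0.198 CPM, and 36.7 CPM in replicate 3, while its neighbour Fpr1, 3883 bases away on chromosome 17, went from 0.264 to 72.6 CPM between the same libraries.

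**Figure D2:**
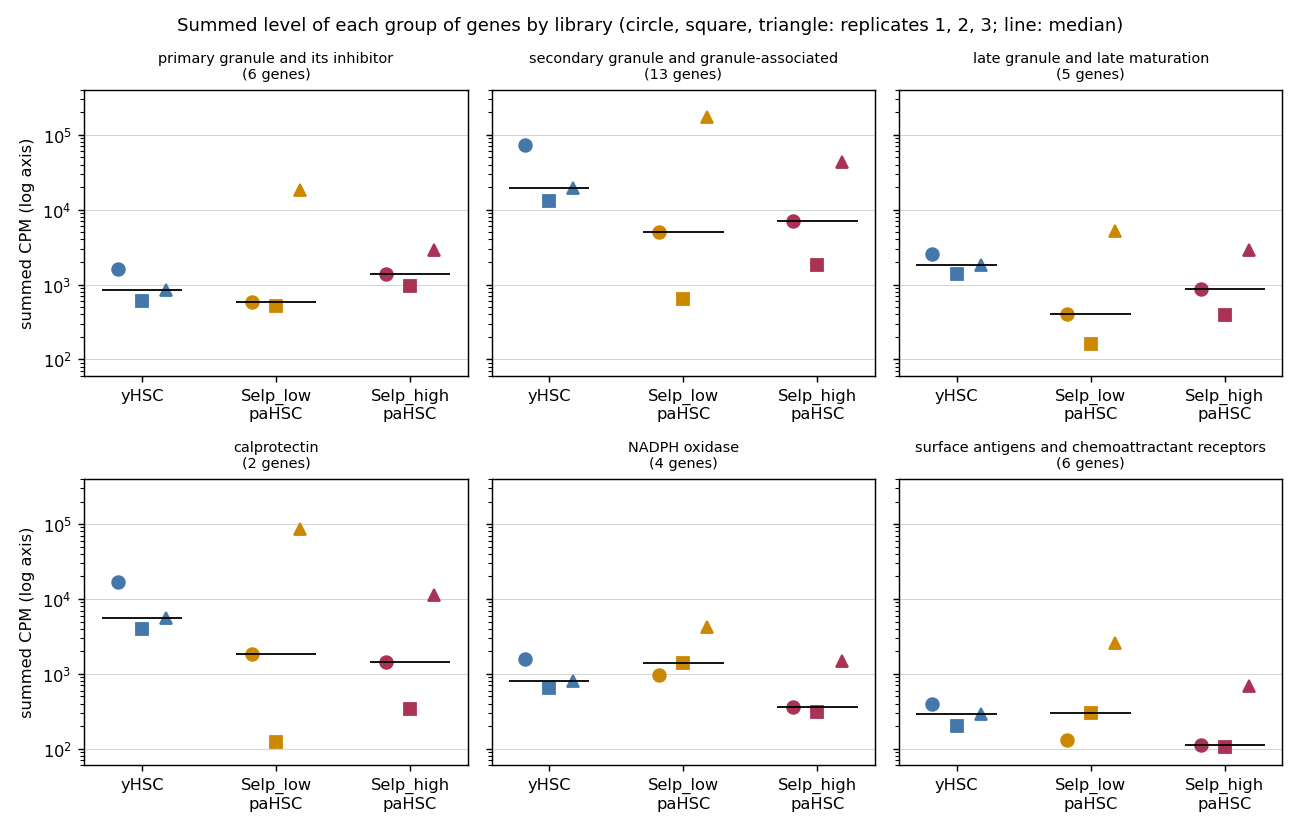
Summed CPM of each of the 6 groups of genes in each library, on a log axis common to the panels; shapes mark replicates 1, 2 and 3 and lines the group medians. The median library was highest in yHSCs for the secondary granule (19165 CPM), late (1829 CPM) and calprotectin (5602 CPM) genes. It was highest in Selp_high paHSCs for the primary granule genes with Serpinb1a (1384 CPM) and in Selp_low paHSCs for the oxidase genes (1378 CPM).

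The order of the groups depended on whether the mean or the median library was read. By group means, Selp_low paHSCs were highest for 29 of the 36 members, and 24 had the order Selp_low, yHSC, Selp_high from high to low. A group median is the value of the middle library of 3, and an extreme library does not set it. By group medians, yHSCs were highest for 27 of the 36, and 18 had the order yHSC, Selp_high, Selp_low. For comparison, 22.0% of the 15667 genes with a mean of at least 1 CPM had this order of medians. Group means of these genes describe Selp_low replicate 3 more than the group: Ngp averaged 22299 ± 36727 CPM in Selp_low paHSCs (SD, n = 3), 15014 ± 16568 CPM in yHSCs and 5932 ± 8016 CPM in Selp_high paHSCs.

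Proportions among the members, which do not depend on the scaling of libraries, differed as well. Secondary granule genes made up 65.5% to 76.1% of the members' summed CPM in yHSCs, 56.4%, 20.5% and 59.6% in Selp_low paHSC replicates 1, 2 and 3, and 62.9%, 46.2% and 69.4% in the Selp_high paHSC replicates. Primary granule genes, with the inhibitor gene Serpinb1a counted in, made up 1.68% to 3.05% in yHSCs. They made up 6.60%, 16.6% and 6.32% in Selp_low paHSCs and 12.3%, 24.2% and 4.62% in Selp_high paHSCs. All 6 paHSC libraries thus had a larger primary share than the 3 yHSC libraries. The summed primary granule level was 593, 515 and 18271 CPM in Selp_low paHSCs and 945 to 2892 CPM in Selp_high paHSCs. It was 600.3 to 1608 CPM in yHSCs, so the larger share was not a level above the yHSC range in replicates 1 and 2 of either paHSC fraction. These sums include Serpinb1a, at 289 CPM in Selp_low replicate 1 and 750.0 CPM in yHSC replicate 1. In Selp_low replicate 2 the oxidase genes made up 44.3%, against 1.45% to 10.6% elsewhere.

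Ratios of single genes, chosen after their values were seen and therefore given with no test, showed the same. Per 100 Ltf counts there were 3.95 to 5.12 Elane counts in yHSCs, 20.8, 559 and 38.6 in Selp_low paHSCs and 37.4, 159 and 10.8 in Selp_high paHSCs. For Mpo the values were 3.18 to 6.21 in yHSCs, 17.4, 616 and 30.3 in Selp_low paHSCs and 61.0, 270 and 14.2 in Selp_high paHSCs. For Ctsg they were 0.171 to 0.241 in yHSCs, 1.91, 160.0 and 2.44 in Selp_low paHSCs and 5.36, 34.2 and 0.496 in Selp_high paHSCs. For each of these 3 genes every paHSC library lay above every yHSC library, including Selp_low replicates 1 and 2, in which the genes themselves were not all above yHSCs. These are ratios to 1 secondary granule gene, and a high value can come from a low Ltf count, which was at 19.1 CPM in Selp_low replicate 2. Against Camp the separation did not hold for Elane and Mpo. In Selp_low replicate 1 Elane and Mpo were at 75.2 and 62.8 CPM beside Camp at 431 CPM. In yHSC replicate 3 both ratios were higher, with Elane and Mpo at 157 and 230.1 CPM beside Camp at 835 CPM.

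Further ratios set the metalloproteinases Mmp8 and Mmp9 and the late gene Retnlg against Camp or Ltf. Per 100 Camp counts there were 50.2 and 55.4 Mmp8 counts in yHSC replicates 2 and 3 but 1.16 in yHSC replicate 1. The ratio was 6.93, 18.9 and 3.03 in Selp_low paHSCs and 35.7, 14.3 and 35.0 in Selp_high paHSCs. Mmp9 per 100 Ltf counts was 10.3 and 10.9 in yHSC replicates 2 and 3 and 0.488 in replicate 1, and 2.16 in Selp_low replicate 3 against 7.83 in Selp_high replicate 3. Retnlg per 100 Camp counts was 39.2 and 33.5 in yHSC replicates 2 and 3, 1.21 in replicate 1, 3.29 in Selp_low replicate 3 and 24.1 in Selp_high replicate 3. The 3 libraries with the most member counts therefore did not share their proportions: yHSC replicate 1 and Selp_low replicate 3 were low in these 3 genes relative to Camp or Ltf, and Selp_high replicate 3 was nearer to yHSC replicates 2 and 3.

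**Figure D3:**
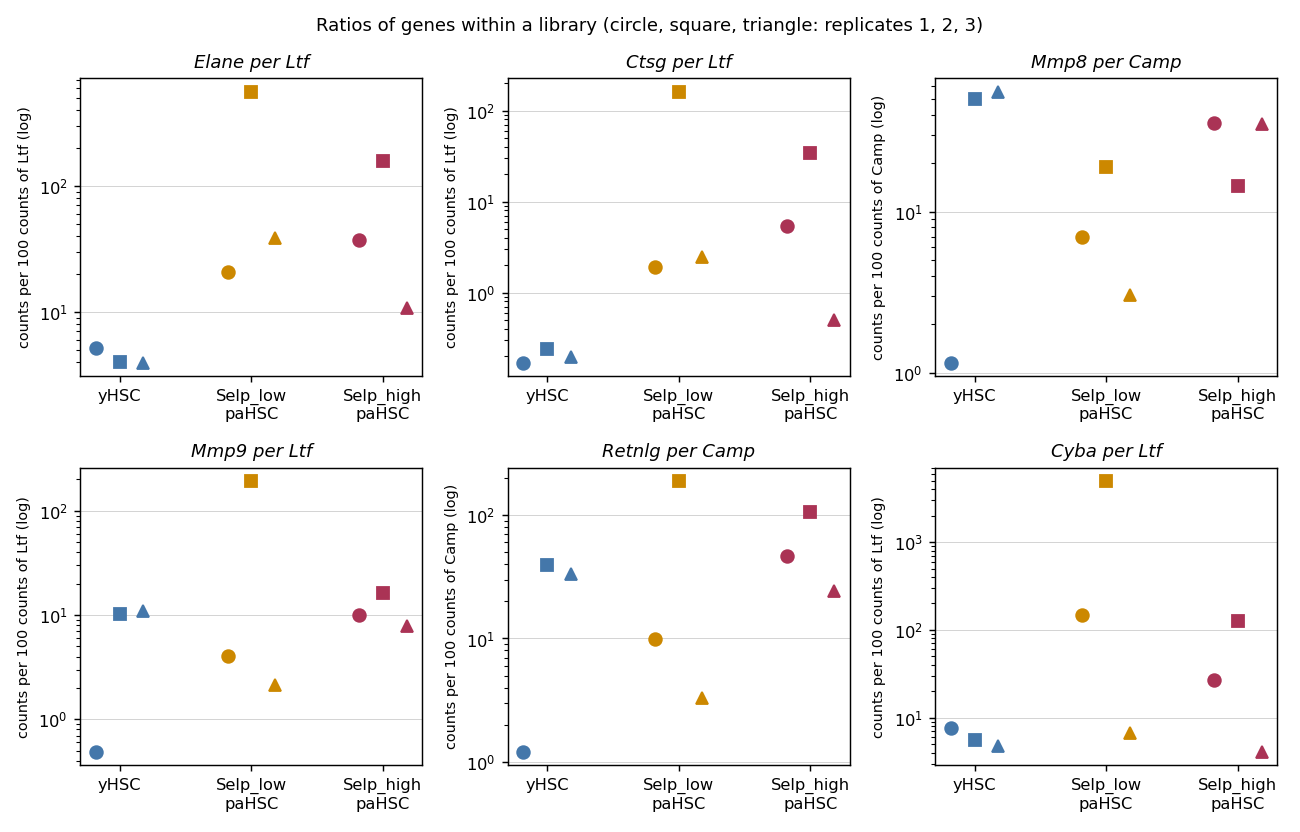
Counts of 1 gene per 100 counts of another within each library, on log axes; colors mark the groups and shapes replicates 1, 2 and 3. Elane and Ctsg per Ltf were higher in all 6 paHSC libraries than in the 3 yHSC libraries, and yHSC replicate 1 had the lowest Mmp8, Mmp9 and Retnlg ratios.

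The spread between replicates was measured as the SD of log2 CPM with a prior count of 2. Among the 36 members the median SD was 0.95 in yHSCs, 3.40 in Selp_low paHSCs and 1.97 in Selp_high paHSCs, against 0.62, 0.55 and 0.70 for all genes passing the filter. An SD above 1 was found for 16, 35 and 31 of the 36 members in this order, and for 34.0%, 22.3% and 37.4% of all genes. The exception in Selp_low paHSCs was Cyba. The ratio of the highest to the lowest library of a group had a median of 3.53 over the members in yHSCs, 72.6 in Selp_low paHSCs (35 members, without Fpr2) and 14.3 in Selp_high paHSCs.

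**Figure D4:**
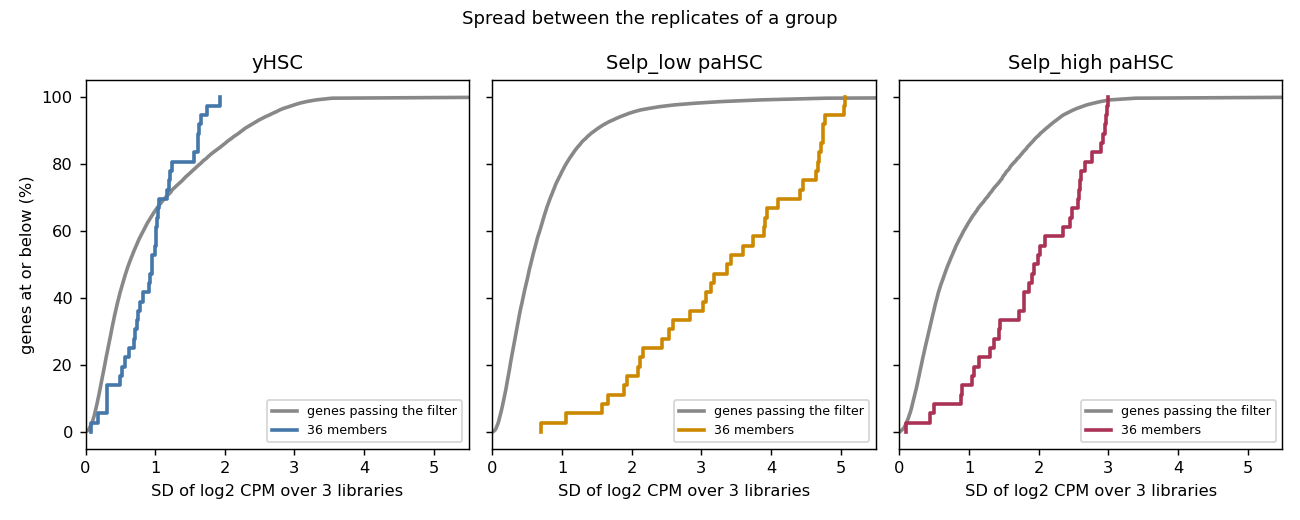
Share of genes at or below a given SD of log2 CPM over the 3 libraries of a group, for the 36 members (colored steps) and for all genes passing the filter on low counts (grey; the upper tail of all genes runs past the axis). Median SDs of the members were 0.95, 3.40 and 1.97 in yHSCs, Selp_low and Selp_high paHSCs.

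The design implies 3 comparisons, of the paHSC fractions with each other and of each with yHSCs; the comparisons share libraries. Each was fitted alone with edgeR's quasi-likelihood test over all genes that passed the filter, which all 36 members did, with Benjamini-Hochberg adjustment over all genes tested. Genes were called where the adjusted p did not exceed 0.05 and the log2 fold change was 1 or more in either direction. With 3 libraries a group, an exact permutation test of a single gene could not go below p = 0.1.

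Between Selp_high and Selp_low paHSCs, 30 of the 36 members had a lower estimate in Selp_high paHSCs, and edgeR called none. The log2 fold change had a median of -1.50 against -0.11 for all genes tested, and ran from -2.96 (S100a8) to 1.86 (Fcna). edgeR called 0 of the 36 members and 0 of 20370 genes (0%), and limma 0 members and 0 genes (0%). An unadjusted edgeR p under 0.05 was reached by 1 member, Cyba, against 12.5% of all genes. DESeq2 also called Cyba alone, against 2.46% of the genes it gave an adjusted p; for 18 members it gave none. The lowest adjusted p of a member with edgeR was 0.338.

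Cyba (ENSMUSG00000006519, chromosome 8, 123151515 to 123159669, minus strand, mm39) was the member with the clearest separation of the paHSC fractions. It was at 244 ± 87.4 CPM in Selp_high paHSCs and 949 ± 424 CPM in Selp_low paHSCs (SD, n = 3), a log2 fold change of -1.97 with a standard error of 0.46 (edgeR adjusted p = 0.338, DESeq2 adjusted p = 0.0170). It was the 1 member with all Selp_high libraries below all Selp_low libraries, which 10.7% of genes tested also showed, and 0 members had the opposite, against 10.3% of genes. The estimate stayed between -2.29 and -1.60 when any 1 library was left out, and was -1.43 with library totals alone. Ngp, at -1.91 with a standard error of 2.05 (edgeR adjusted p = 0.738), and S100a8, at -2.96 with a standard error of 2.15 (edgeR adjusted p = 0.607), show the usual width.

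The direction of the members' median rested on Selp_low replicate 3, though not that of each member: Padi4 and Fcna stayed above 0 and Cyba below 0 without it. Without that library the median log2 fold change of the 36 members was 2.33 instead of -1.50, 32 members were above 0, and 9 had every Selp_high library above both remaining Selp_low libraries, against 17.4% of genes tested; edgeR still called 0 members (0.223% of all genes), with 10 at an unadjusted p under 0.05 (13.3% of all genes). Without Selp_high replicate 3 the median was -3.13. limma's quality weights, which weigh outlying libraries less, gave a median of 1.86.

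Equal replicate numbers of the paHSC fractions deviated together, as described with the processing, so the difference was also read within numbers. That check cannot establish pairing, so the pairs here are pairs by number only. Selp_high minus Selp_low in log2 CPM was above 0 for 22 of 36 members between the replicates 1 (median 0.43), for 28 between the replicates 2 (median 1.20) and for 5 between the replicates 3 (median -1.86). For all genes the medians were -0.27, 0.04 and -0.11. Of the 36, 7 members were lower in Selp_high paHSCs in all 3 pairs: the 4 oxidase genes Cybb, Cyba, Ncf1 and Ncf4, the protease inhibitor Serpinb1a, the bacterial peptidoglycan-binding Pglyrp1, and Ly6c2. Another 3 were higher in all 3 pairs, Mmp8, Padi4 and Fpr1.

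With the replicate number as a block, the median log2 fold change of the members was 0.03 and edgeR called 0 of them (0.0442% of all genes), with 9 at an unadjusted p under 0.05 (3675 of 20370 genes). DESeq2 with the block called 11, against 10.1% of all genes: the 7 lower members above, and Mmp8, Padi4, Fpr1 and Fcna, which were higher. Among the oxidase genes the blocked log2 fold changes were -2.02 for Ncf4, -1.92 for Cyba, -1.37 for Cybb and -1.19 for Ncf1, with edgeR adjusted p of 0.0835, 0.0919, 0.0974 and 0.105. Padi4 was at 1.81 in the blocked edgeR fit (adjusted p = 0.163) against 1.13 with a standard error of 0.96 without the block. Fcna was at 1.86 with a standard error of 1.17 without the block (edgeR adjusted p = 0.558). Its estimate fell to 0.079 without Selp_high replicate 2, its highest library.

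Between Selp_high paHSCs and yHSCs, Mpo, Prtn3 and Ctsg lay higher in every Selp_high library than in every yHSC library, near the share that all genes showed. edgeR called 0 of the 36 members and 33 of 20017 genes (0.165%), with 3 members, Mpo, Prtn3 and Ctsg, at an unadjusted p under 0.05, against 7.59% of genes. These 3 of 36 had every Selp_high library above every yHSC library, against 8.53% of genes tested, and 0 members had every one below, against 5.28%. DESeq2 called Mpo and Ctsg, with a background of 3.26%, and limma called Ctsg, with a background of 1.37%.

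Ctsg was at 43.8 ± 3.09 CPM in Selp_high paHSCs and 8.67 ± 3.05 CPM in yHSCs (SD, n = 3), a log2 fold change of 2.30 with a standard error of 0.35; edgeR gave an adjusted p of 0.0888, DESeq2 4.56e-06 and limma 0.00343. Mpo was at 684 ± 446 against 204 ± 40.0 CPM, a log2 fold change of 1.70 with a standard error of 0.45 (adjusted p 0.308 in edgeR and 0.0233 in DESeq2). Prtn3 was at 297 ± 85.9 against 140.0 ± 28.0 CPM, a log2 fold change of 1.06 with a standard error of 0.30 (adjusted p 0.345 in edgeR and 0.0979 in DESeq2). Their estimates stayed above 0 whichever library was left out, Ctsg between 2.13 and 2.65, Mpo between 1.07 and 1.99 and Prtn3 between 0.84 and 1.25. Elane, whose groups overlapped through yHSC replicate 1, was at 1.14 with a standard error of 0.66 (edgeR adjusted p = 0.836).

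Prtn3 carries a further uncertainty. The gene overlaps Plppr3, a protein-coding gene on the other strand, and the cDNA kit named in the labels does not mark strand, so reads of the shared stretch cannot be told apart. Plppr3 was at 81.9, 251 and 326 CPM in yHSCs and at 190.0, 87.5 and 105 CPM in Selp_high paHSCs, and was highest in yHSC replicate 3. Its counts reached 233% of those of Prtn3 in a library. Other overlaps concerned Ncf1 with Gtf2ird2 (12.1 to 34.5 CPM over the 9 libraries), Fcna with Fcnaos (0.373 to 1.15 CPM) and Fpr2 with Fpr3, on the same strand (0 to 0.271 CPM). In a library these reached up to 62.2%, 62.5% and 64.7% of the counts of Ncf1, Fcna and Fpr2. Gm49368, on the same strand as Itgam, reached 5% of its counts. Anxa1, Mpo and Itgb2l also overlapped a gene, with at most 0.226% of their counts.

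Outside the primary granule group, edgeR, DESeq2 and limma called no member between Selp_high paHSCs and yHSCs; DESeq2 with the replicate block, whose numbers did not pair these libraries, also called Ltf at -2.45 (adjusted p = 0.0304) and Lcn2 at -2.47 (adjusted p = 0.0302), with a background of 4.15%. Of all 36, 27 were below 0, with a median of -0.54 against -0.03 for all genes tested. Secondary granule genes had a median of -0.66 (12 of 13 below 0), calprotectin genes of -1.11, oxidase genes of -0.54 (4 of 4 below 0), surface genes of -0.34 and late genes of -0.09, while primary granule genes had 1.10 (4 of 6 above 0). Ngp was at -1.43 with a standard error of 1.27 (edgeR adjusted p = 0.961) and S100a8 at -1.22 with a standard error of 1.14 (edgeR adjusted p = 0.974). Without Selp_high replicate 3 the median of the members was -2.26 and 22 of them had every Selp_high library below every yHSC library, against 9.55% of genes tested. Without yHSC replicate 1 the median was 6.41e-05, with 18 members on either side of 0 and 5 above without overlap, against 13.7% of genes tested.

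Between Selp_low paHSCs and yHSCs, 31 of 36 estimates were above 0 and edgeR called none. The median over the members was 0.75 against 0.08 for all genes tested. edgeR called 0 members and 0 of 20437 genes (0%), and 2 members, Ctsg and Cyba, had an unadjusted p under 0.05, against 11.3% of genes. limma called 0 members, with a background of 2.11%. DESeq2 called Ctsg, with a background of 2.63%, and gave no adjusted p for 22 members. Of the 36, 0 had every Selp_low library above every yHSC library (9.59% of genes tested) and 1, Fcna, had every one below (6.76%).

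Ctsg was at 179 ± 278 CPM in Selp_low paHSCs, a log2 fold change over yHSCs of 4.35 with a standard error of 1.49 (adjusted p 0.360 in edgeR and 0.0145 in DESeq2), and at 1.11 without Selp_low replicate 3. Cyba was at 949 ± 424 against 289 ± 213 CPM, a log2 fold change of 1.72 with a standard error of 0.62 (edgeR adjusted p = 0.372), with yHSC replicate 1 above Selp_low replicate 1. Fcna (ENSMUSG00000026938, chromosome 2, 25514678 to 25518042, minus strand, mm39) was at 10.2 ± 9.30 against 41.0 ± 19.1 CPM, a log2 fold change of -1.92 with a standard error of 0.85 (edgeR adjusted p = 0.462). Ngp was at 0.51 with a standard error of 1.84 (edgeR adjusted p = 0.988) and S100a8 at 1.78 with a standard error of 1.87 (edgeR adjusted p = 0.851).

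The sign of this comparison again rested on 1 library. Without Selp_low replicate 3 the median of the members was -2.97 instead of 0.75, 33 of 36 were below 0, and 29 had both remaining Selp_low libraries below every yHSC library, against 19.2% of genes tested. edgeR called 0 members in this fit too (0.534% of all genes), with 23 at an unadjusted p under 0.05 (13.2% of all genes). Selp_low replicates 1 and 2 thus held less of 29 members than any yHSC library, and replicate 3 held more of 31 members than any other library.

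**Figure D5:**
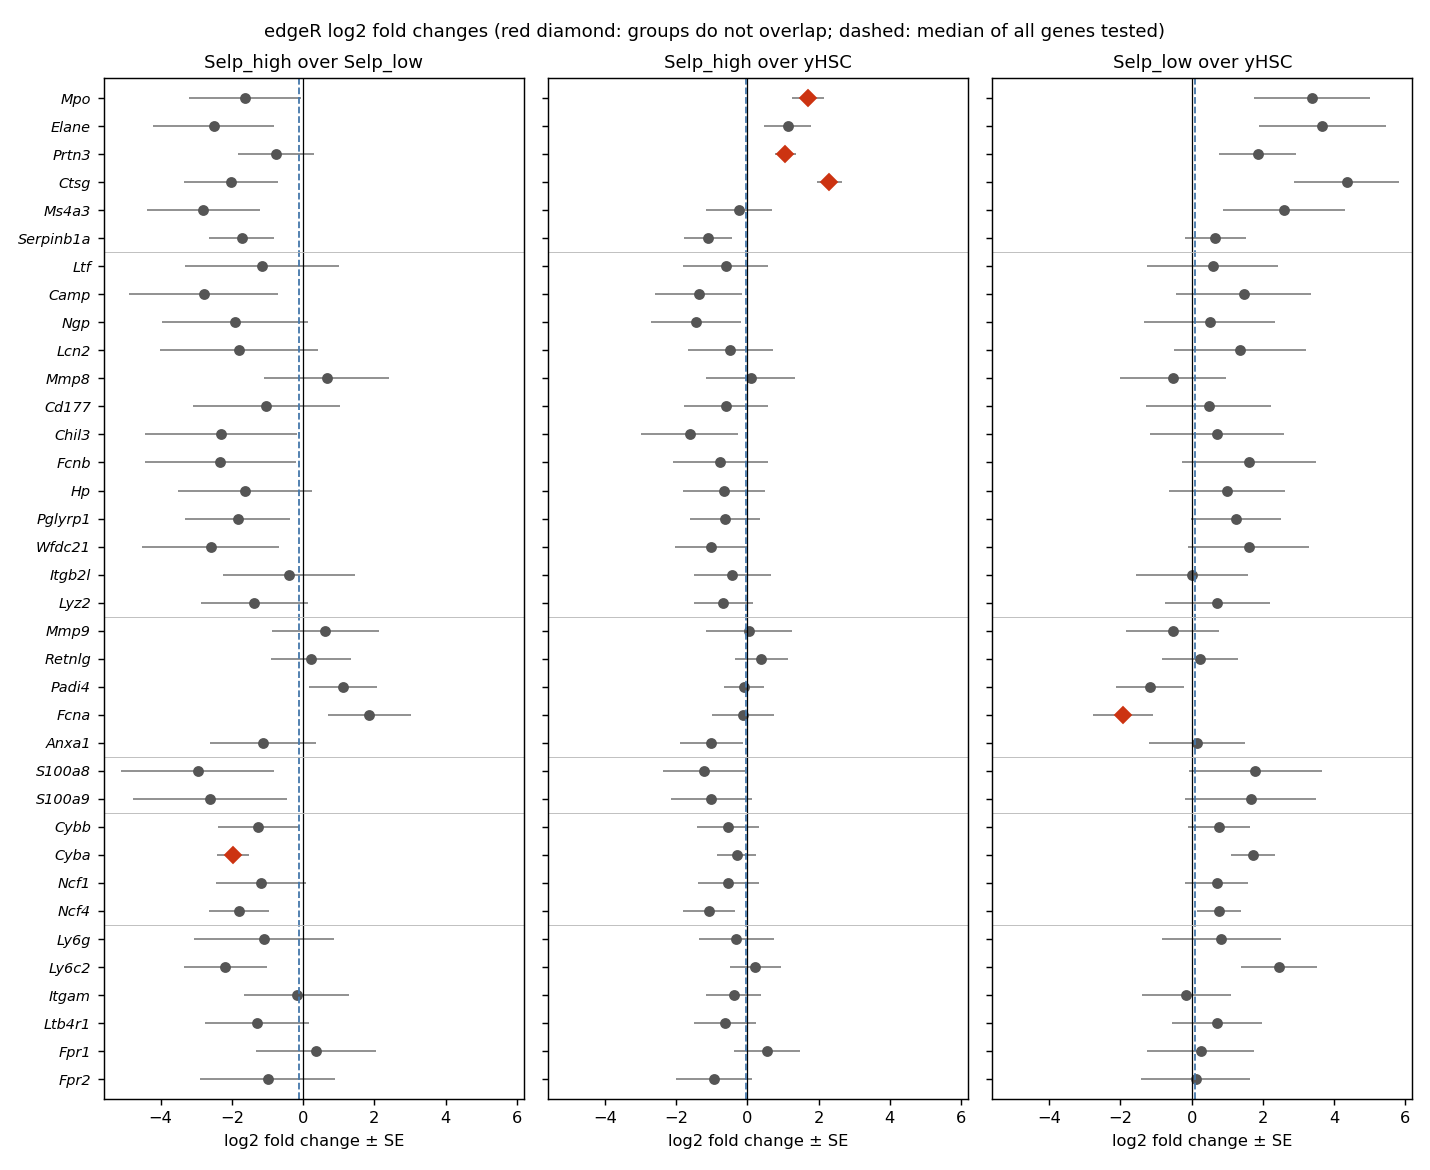
edgeR log2 fold change of each of the 36 genes in the 3 comparisons, with bars of 1 standard error; red diamonds mark genes whose groups do not overlap and dashed lines the median of all genes tested. Mpo, Prtn3 and Ctsg are so marked in Selp_high paHSCs over yHSCs, Cyba in Selp_high over Selp_low paHSCs and Fcna in Selp_low paHSCs over yHSCs.

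The width of these estimates set what could be detected. The median standard error of a member's log2 fold change was 1.58 in Selp_high over Selp_low paHSCs, 0.93 in Selp_high paHSCs over yHSCs and 1.49 in Selp_low paHSCs over yHSCs, against 0.59, 0.55 and 0.58 for all genes tested. The biological coefficient of variation had a median of 1.16, 0.762 and 1.13 over the members and of 0.562, 0.532 and 0.564 over all genes. The members with the lowest variation were Cyba, Prtn3 and Cyba in this order of comparisons.

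Genes of the same pathway that were not members gave further values. A list of 24 other neutrophil granule and maturation genes, such as Olfm4, Cxcr2 and Trem1, had 21, 22 and 21 genes tested, medians of -1.02, -0.32 and 0.63 in Selp_high over Selp_low paHSCs, Selp_high paHSCs over yHSCs and Selp_low paHSCs over yHSCs, and 0 edgeR calls in each. Slpi, an inhibitor of elastase and cathepsin G, had the largest change with an unadjusted p under 0.05 in both comparisons with yHSCs, 2.08 with a standard error of 0.83 in Selp_high paHSCs (edgeR adjusted p = 0.613) and 4.39 with a standard error of 1.49 in Selp_low paHSCs (edgeR adjusted p = 0.359, DESeq2 adjusted p = 0.0125). In Selp_low paHSCs Slpi was at 21.9, 1949 and 175 CPM, so that replicate 2, the library with the high plasma cell markers, was far above the others and replicate 1 lay below every yHSC library (26.4 to 41.5 CPM). Clec4d was at 2.12 in Selp_low paHSCs over yHSCs (edgeR adjusted p = 0.378).

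The 10 granulocyte regulators, transcription factors and receptors that drive granulopoiesis, summed to 860 to 1146 CPM in yHSCs, 668 to 1727 CPM in Selp_low paHSCs and 483 to 1048 CPM in Selp_high paHSCs, and their median log2 fold changes were -0.51, -0.40 and -0.07 in the 3 comparisons, with 0 edgeR calls. Gfi1, a repressor needed for neutrophil differentiation and also expressed in HSCs, had an estimate of -1.29 in Selp_high paHSCs over yHSCs with a standard error of 0.35 (edgeR adjusted p = 0.332, DESeq2 adjusted p = 0.0311), and Spi1, which encodes PU.1, one of -0.92 with a standard error of 0.37 (edgeR adjusted p = 0.622). Cebpe, the factor of secondary granule genes, was at 22.0 to 45.0 CPM in yHSCs, at 3.80, 2.50 and 304 CPM in Selp_low paHSCs and at 6.84, 8.55 and 107 CPM in Selp_high paHSCs. Its highest and lowest libraries were those of most secondary granule genes.

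Among genes that work with the oxidase, edgeR called none of Hvcn1, Rap1a and Cybc1, which were named for an unadjusted p under 0.05. Hvcn1, the voltage-gated proton channel of phagocytes and B cells, was at 9.19 to 35.1 CPM in Selp_high paHSCs and 73.1 to 103 CPM in Selp_low paHSCs, a log2 fold change of -2.22 with a standard error of 0.51 (edgeR adjusted p = 0.338, DESeq2 adjusted p = 0.0115). It had no overlap between the paHSC fractions, as Cyba had none. In Selp_low paHSCs over yHSCs Hvcn1 was at 1.76, Rap1a at 1.17 and Cybc1 at 0.67, with edgeR adjusted p of 0.332, 0.337 and 0.373.

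Reads of close copies could bear on some members, since how multi-mapping reads were counted is not given in the sources used here. Lyz1, near-identical to Lyz2, stayed at or below 6.44 CPM. Chil4 stayed at or below 1.66 CPM beside Chil3, and Ly6c1 at or below 9.69 CPM beside Ly6c2. Of the 13 copies listed, 4 (Fpr-rs3, Fpr-rs4, Fpr-rs6 and Fpr-rs7) had 0 counts in all libraries. Ly6c1 was at -3.30 in Selp_high over Selp_low paHSCs with a standard error of 0.89 (edgeR adjusted p = 0.338, DESeq2 adjusted p = 0.00933), and Ly6c2 at -2.18.

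Markers of other cells also differed between libraries. Megakaryocyte and platelet markers summed to 119 to 193 CPM in yHSCs, 155 to 2092 CPM in Selp_low paHSCs and 1279 to 7394 CPM in Selp_high paHSCs. Eosinophil, basophil and mast cell markers summed to 31.3 to 100.3 CPM in yHSCs and reached 1535 CPM in Selp_high replicate 3 and 924 CPM in Selp_high replicate 2. T and NK cell markers summed to 94.7 to 126 CPM in yHSCs, 382 to 972 CPM in Selp_low paHSCs and 149 to 175 CPM in Selp_high paHSCs. Erythroid markers ran from 1281 to 5546 CPM and stroma and endothelium markers from 38.2 to 198 CPM over all libraries, and 0 genes of these lists were at 0 in every library. None of these sums was highest in Selp_low replicate 3, the library with the most neutrophil RNA. Their part in the members' levels was not tested.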

How the data were processed

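RNA-seq was analysed in 9 libraries of sorted mouse HSCs, 3 groups of 3. Per the study's methods and the submitters' processing notes, the authors trimmed reads with fastp, aligned them to mm39 with HISAT2 (2.2.1) and counted them with featureCounts (2.0.6); the deposited values are whole-number read counts per gene, not normalized. Annotation release and strand setting: not stated in any source read. All per-sample columns were used.

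The main fits used edgeR 4.0.16 under R 4.3.3 (TMM factors, filterByExpr, quasi-likelihood test with the legacy setting), with limma 3.58.1 and DESeq2 1.42.0 as alternatives; figures used matplotlib 3.10.9. Fits covered all genes. FPKM used the deposited gene length. Depth was 24866975 to 35375310 counts. Fits were run on simulated counts with known changes. A pass was required only at a low set dispersion, below that of every member, so it does not cover genes this variable. Alternatives covered normalization, filters, tools, a replicate block and each library left out.

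Equal replicate numbers were checked by correlating deviations from group means. The values were 0.178, 0.276 and 0.303 between the paHSC fractions, all above the 0.1 taken as pairing, and unequal numbers gave -0.245 to 0.0252. Equal numbers with yHSCs gave -0.417 to 0.0917. Unequal numbers with yHSCs, from mice of another age, reached 0.449 (Selp_high replicate 1, yHSC replicate 2) and 0.406 (Selp_high replicate 2, yHSC replicate 1). Values above 0.1 thus arose without pairing, so the check cannot establish it. The blocked fits and pairs therefore used equal numbers only, and the labels give no pairing.

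Members, lists and motifs were chosen with earlier results of these data known. Full values went to the 3 members per group with the highest FPKM, those called by edgeR or DESeq2, and those whose groups did not overlap; of other lists at most 3 genes with an unadjusted p under 0.05 and the largest change. Ltf, Mmp8, Padi4, Cebpe and the ratios were chosen after their values were seen. A list summary is not reported here.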

Additional observations from a re-analysis of the deposited data

How the results depend on the processing

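With edgeR, 0 members were called in any comparison under each other normalization, the alternative count minimum, the fit of all 9 libraries, the replicate block and each library left out. Without a filter on low counts 1, 2 and 1 members were called (Selp_high over Selp_low, Selp_high over yHSC, Selp_low over yHSC), against 0.443%, 1.14% and 0.836% of all genes. DESeq2 called 1, 2 and 1 (2.46%, 3.26% and 2.63% of all genes), and DESeq2 with the replicate block 11, 5 and 2 (10.1%, 4.15% and 2.51%). In Selp_high over yHSC, limma and edgeR's newer quasi-likelihood setting each called 1 (1.37% and 0.450%). The members' median was 1.86 and -1.84 with limma in Selp_high over Selp_low and Selp_low over yHSC, and 0.034 and -1.72 with the replicate block. Leaving out 1 library at a time gave medians of -3.13 to 2.33, -2.26 to 6.41e-05 and -2.97 to 1.59 in the 3 comparisons. Members above without overlap then numbered 0 to 9, 3 to 5 and 0 to 3, against 12.6% to 17.4%, 9.53% to 13.9% and 9.38% to 26.2% of all genes. Those below numbered 1 to 6, 0 to 22 and 1 to 29, against 12.3% to 22.3%, 6.34% to 16.4% and 7.33% to 21.8%.

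Single genes turned as well. Ngp in Selp_high over Selp_low was at 2.40 with limma, 0.0043 with the replicate block, 0.0096 with DESeq2 and the block and -4.06 to 2.42 with 1 library left out, highest without Selp_low replicate 3; S100a8 was at 1.68 with limma and -5.12 to 1.90 with 1 library left out. Ngp in Selp_high over yHSC was between -3.48 and 0.092 with 1 library left out, highest without yHSC replicate 1. In Selp_low over yHSC, Ngp was at -2.69 with limma, -3.11 with the replicate block, -3.20 with DESeq2 and the block and -3.77 (without Selp_low replicate 3) to 2.04 with 1 library left out, and S100a8 at -2.09, -2.25, -2.35 and -3.04 to 2.84. Beyond the different libraries entering or being weighted, the cause was not tested. Replicate numbers did not pair paHSC with yHSC libraries, so the block there is a number only. Library totals alone moved the median of all genes from -0.11 to 0.37 in Selp_high over Selp_low and from 0.08 to -0.47 in Selp_low over yHSC, and the members' medians to -1.05 and 0.21. Depth limited only the lowest values, such as Fpr2 in Selp_low replicate 2.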
